A study of Mus musculus with 14 samples.

Results

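Translation initiation factor genes are the genes whose proteins bring the small ribosomal subunit, the initiator tRNA and an mRNA together at a start codon. They were taken here as every gene whose symbol begins with Eif and a digit from 1 to 6, without the eIF2 kinases, Eif4e1b and Eif4enif1, and each was represented by its transcript with the highest mean count. This gave 50 of the 20337 genes in the count data. Their RNA levels were compared in full-grown, germinal vesicle (GV)-intact mouse oocytes in which AGO2 could not cleave RNA, AGO2 was absent, or DICER was absent.

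The 14 libraries comprised 3 libraries each of Ago2 fl/fl, Ago2 ADH, Dicer WT and Dicer KO oocytes, and 2 of Ago2 null oocytes. DICER makes microRNAs and endogenous siRNAs, and AGO2 is the Argonaute protein that cuts targets matched to such small RNAs. Ago2 fl/fl females, which the labels call Ago2 wild-type, carried a floxed Ago2 gene and no Cre. Ago2 ADH oocytes came from Ago2 fl/ADH females with 1 copy of Zp3-Cre, so that after the floxed allele was excised only an allele with a mutated catalytic motif remained. Ago2 null oocytes had lost both floxed alleles to the same Cre, and Dicer KO oocytes came from oocyte-specific Dicer null females and were set against Dicer WT oocytes. Because the Zp3 promoter acts in growing oocytes, RNA and protein made before excision were not removed by it. All females were 4 to 6 weeks old and had received 5 IU of eCG, a gonadotropin that drives follicle growth, 48 h earlier, and oocytes were collected in medium with milrinone, which holds the germinal vesicle intact. Each library was made from 20 oocytes pooled from 3 or 4 animals of a genotype, so animals within a library cannot be separated. P-values measure the spread between these pools.

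In textbook terms, eIF1 and eIF1A keep the small subunit open while it scans, eIF2 carries the initiator tRNA and is recharged by eIF2B, and the many-subunit eIF3 holds the complex together. The cap of the mRNA is bound by eIF4E, which joins the scaffold eIF4G and the helicase eIF4A, and 4E-BP proteins block that junction. eIF5 and eIF5B then trigger GTP hydrolysis and joining of the large subunit. Full-grown GV oocytes make almost no new RNA, and the proteins of meiotic maturation are translated from mRNA stored during growth, so the transcripts measured here are largely a stored pool.

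Counts summed over transcripts ranged from 29380403 to 58285057 per library. A floor of 3 counts corresponded to 0.0515 to 0.102 CPM, the count scaled to a library total of 1e6, and such intervals cover counting error only, since the amplified reads carried no molecular identifiers. Levels are given below as CPM scaled by the trimmed mean of M-values (TMM). Levels of different genes are set side by side only as CPM per kb of transcript, except in the sums over markers and over all members. Ago2 itself was at 24.5, 25.6 and 24.1 CPM in the Ago2 fl/fl, 13.8, 13 and 12.4 in the Ago2 ADH and 7.18 and 5.27 in the Ago2 null libraries, so the 3 genotypes did not overlap. Dicer1 was at 749.5, 745 and 779 CPM in the Dicer WT and 1928, 1815 and 1669 in the Dicer KO libraries. Counts over a whole transcript do not show the loss of a part of it, so this higher value does not check the Dicer KO label. Dicer1 was also higher in the Ago2 mutants, with means of 642 CPM in Ago2 fl/fl, 992 in Ago2 ADH and 944 in Ago2 null. Ago2 was also lower in Dicer KO, at a mean of 17.6 CPM against 26.1 in Dicer WT. In each case mutant and control libraries did not overlap. The 10 oocyte markers summed to 11610 to 18500 CPM and the 4 blood and immune markers found in the count data to at most 0.0747 CPM in any library. The 10 cumulus and granulosa markers, of cells that surround the oocyte, summed to 34.6 to 41.4 CPM in Ago2 fl/fl, 27.5 to 34.9 in Ago2 ADH, 25.1 to 25.9 in Ago2 null, 52.5 to 61.9 in Dicer WT and 47.1 to 49.7 in Dicer KO libraries, most of it from Cyp19a1, and Ptx3 and Foxl2 were at or near 0 throughout. Of the granulosa markers tested, 1 of 6 was called higher and 2 lower in Ago2 ADH, 0 and 1 of 6 in Ago2 null, and 0 and 2 of 4 in Dicer KO. The reads tallied apart for having several alignments came to 0.557 to 0.597 per transcript count in Ago2 fl/fl, 1.58 to 1.66 in Ago2 ADH, 1.57 to 1.66 in Ago2 null, 0.388 to 0.536 in Dicer WT and 0.939 to 1.19 in Dicer KO libraries. The part of these 2 shifts, in granulosa markers and in reads with several alignments, in the differences below was not tested. By the lane numbers recorded with the counts, the Ago2 genotypes were run on different lanes, so that an effect of lane cannot be told apart from one of genotype in that set.

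Initiation factor transcripts were among the more abundant of these oocytes. Their median level in Ago2 fl/fl oocytes was 27.5 CPM per kb, where the median of 20241 genes with a known length was 0.727, and 24 of the 50 lay above the 90th percentile of genes. The corresponding number was 22 in Ago2 ADH, 23 in Ago2 null, 27 in Dicer WT and 23 in Dicer KO oocytes. In Ago2 fl/fl oocytes the highest was Eif1b at 312 ± 33.5 CPM per kb (mean ± SD, n = 3), followed by Eif1 at 202 ± 6.15, which code for eIF1, the guard of start codon choice, and its close relative eIF1B. Eif3k (179.9 ± 6.86), Eif4a1 (169.8 ± 4.76) and Eif2s2 (159.9 ± 6.01) came next, and the gaps between these 3 neighbours were little larger than their SDs and were not tested. Dicer WT oocytes had another order at the top, with Eif2s2 at 187 ± 1.77, Eif1b at 181 ± 3.09 and Eif5 at 151 ± 1.72, and the 2 control groups were run on different lanes. At the low end were the 4E-BP gene Eif4ebp1, the eIF1A copy Eif1a, the second eIF5A gene Eif5a2 and Eif4a3l1, a copy of the exon junction helicase gene Eif4a3, none above 0.5801 CPM per kb in Ago2 fl/fl. Eif2s3y, the Y-linked copy of the eIF2 gamma gene, had no more than 2 counts in any library of these female cells and was the 1 member not tested.

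**Figure D1:**
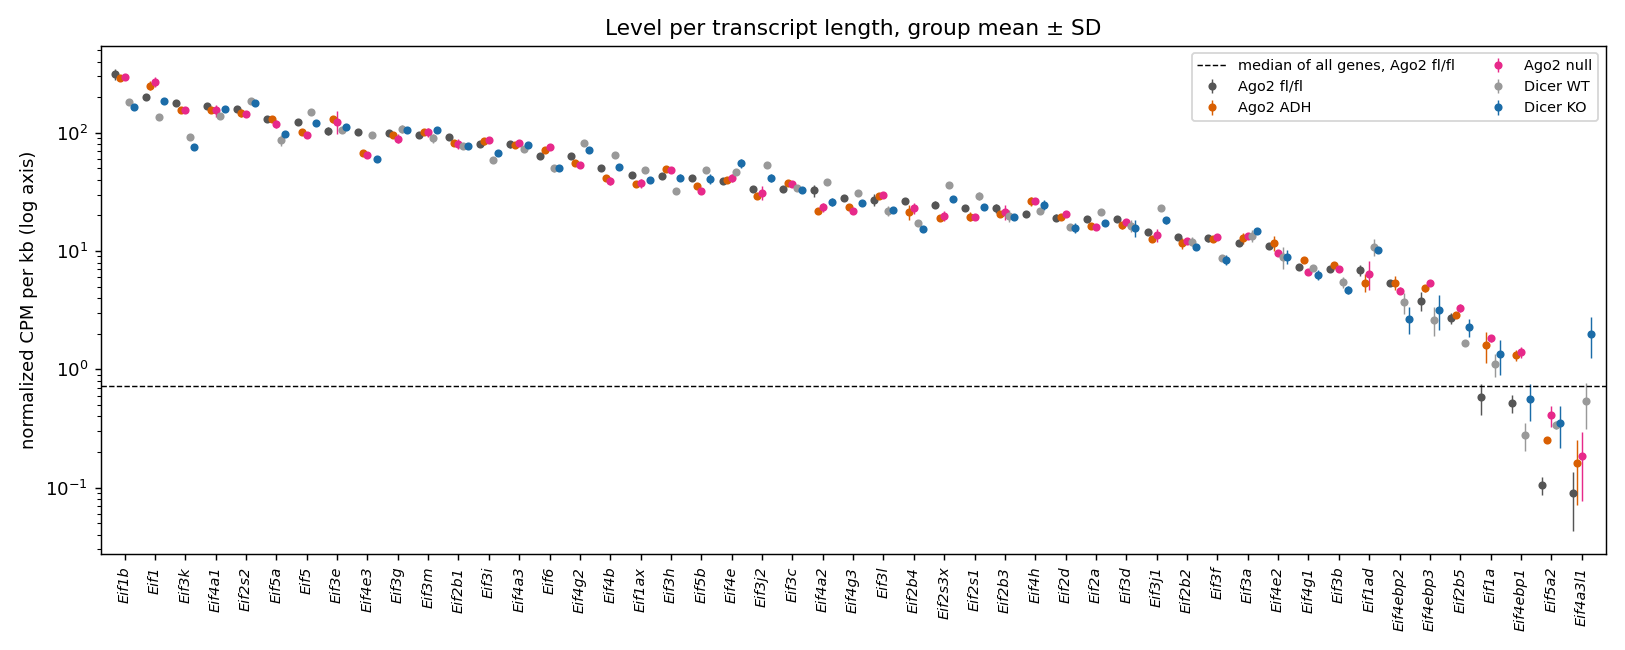
Normalized CPM per kb of transcript (y, log axis) of the 49 tested members, ordered by their mean in Ago2 fl/fl; points are group means and bars SD over 2 or 3 libraries. Most members lie far above the dashed line, the Ago2 fl/fl median of all genes at 0.727 CPM per kb.

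By CPM per kb, subunits of 1 complex were not at 1 level. The 13 distinguishable eIF3 subunits ranged in Ago2 fl/fl oocytes from 7.07 CPM per kb for Eif3b to 179.9 for Eif3k, a 25.4-fold range, and in Dicer WT oocytes from 5.45 for Eif3b to 108 for Eif3g. Eif3j1 and Eif3j2 are near-identical copies whose counts differed by 6 to 19 reads in any library, so their reads could not be assigned to one or the other. They are taken as 1 subunit in these levels, and the counts and sums over all members below include both. Summed over subunits, eIF3 stayed within 716 to 743 CPM per kb in Ago2 fl/fl, 728 to 760 in Ago2 ADH and 713 to 765 in Ago2 null libraries, and these ranges overlapped. Lengths were the longest annotated ones and need not be those used in oocytes. Near-identical counts gave 14.61 CPM per kb for Eif3j1 and 33.35 for Eif3j2 in Ago2 fl/fl. The part of length and of cDNA amplification in the range between subunits was not tested.

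The promoters of 39 members are listed in RefSeq (GRCm38.p6), as windows of 250 bases before to 50 bases after the start. Some members, such as Eif5a and Eif4e, have several listed starts, and a match at any of them counted. The palindrome CACGTG, the E-box bound by MYC and USF proteins, was found in 10 of the 39 members (25.6%), against 8.09% of 27025 genes. CCGGAAGT, the core of ETS family sites, read on both strands, was in 7 (17.9%) against 4.31% of genes. A TATA box written as TATAAA was in 4 (10.3%) against 15.7% of genes. A C followed by 4 pyrimidines at the first transcribed base, the start of the TOP mRNAs that mTOR regulates, was at Eif2s3x and Eif3f, 2 of 39 (5.13%) against 3.01% of genes. These are matches of letters, and no binding was measured. The 27025 genes were not matched to the members in level, and the shares were not tested. The windows around the E-box of 5 genes are shown first, with the E-box in capitals, because these genes share it and yet differ in which comparisons called them.
Eif4e (chr3:138527029-138527058, + strand): tcgccagcgacCACGTGatcactttttttt
Eif4e (chr3:138527193-138527222, + strand): gacacgtccgtCACGTGggcaggagccggc
Eif4g1 (chr16:20672662-20672691, + strand): gcagtgggtgtCACGTGatggggcggagca
Eif4a1 (chr11:69672594-69672623, - strand): gatcgcctccgCACGTGtaaaggtgctggg
Eif4h (chr5:134639487-134639516, - strand): ggccgccgcacCACGTGggccgcagagcgc
Eif5a2 (chr3:28781124-28781153, + strand): ctaatccgcagCACGTGgggttgccagggc
The start windows of Eif2s3x and Eif3f are shown with the transcribed bases in capitals, for the run of pyrimidines that opens them, and that of Eif4a2 for contrast with Eif2s3x, as another gene that was lower in all mutants.
Eif2s3x (chrX:94212637-94212666, - strand): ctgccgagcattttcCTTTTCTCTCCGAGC
Eif3f (chr7:108934400-108934429, + strand): tctgttctaggctctCTCTCTTTCTCGGCA
Eif4a2 (chr16:23107453-23107482, + strand): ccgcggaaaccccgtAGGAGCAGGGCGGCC
Of the 10 genes with an E-box, 6 were called in at least 1 of the 3 comparisons below and 4 in none, where 55.1% of all tested members and 54.8% of all genes tested in the 3 were. Of the 7 genes called lower in all 3, 6 had a listed window. Neither the E-box nor the ETS core was found in any window of those 6 genes, which says nothing about the factors themselves.

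Compared with Ago2 fl/fl oocytes, 18 of the 49 tested members were mis-regulated in Ago2 ADH oocytes at a false discovery rate (FDR) of 1%, 9 higher and 9 lower (36.7%, where 40.7% of all transcripts tested were called). In Ago2 null oocytes 14 were called, 7 higher and 7 lower (28.6%, against 37.2% of transcripts). In Dicer KO compared with Dicer WT oocytes 19 were called, 5 higher and 14 lower (38.8%, against 34.5%). These shares are near or below the background, with 1 split that differed: in Dicer KO oocytes 28.6% of members were called lower and 10.2% higher, against 17.8% and 16.7% of transcripts. With Eif3j1 and Eif3j2 counted once, 13 of 48 members were lower in Dicer KO (27.1%). Among all genes at a mean of at least 1 CPM, 20.2% were lower and 18.5% higher in Dicer KO. Of the 47 members at that level, 27.7% were lower and 8.51% higher. In Ago2 ADH 20.5% of transcripts were called higher and 20.1% lower, and in Ago2 null 18.1% and 19.1%. At an FDR of 5% the members called were 27, 23 and 21 (55.1%, 46.9% and 42.9%, against 52.5%, 49.2% and 46.2% of transcripts), and at an unadjusted p under 0.05 they were 30, 27 and 26, where 57.4%, 55.3% and 52.4% of transcripts were. As these were pools of oocytes, less of an RNA in each oocyte and fewer oocytes that hold it cannot be told apart. The Ago2 ADH and Ago2 null comparisons share the 3 Ago2 fl/fl libraries and are not independent. Without TMM scaling, with total counts as library size, the split became 7 higher and 14 lower in Ago2 ADH, 6 and 9 in Ago2 null and 4 and 15 in Dicer KO oocytes.

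The called members moved by small amounts. Among called members the median absolute log2 fold change was 0.28 in Ago2 ADH, 0.36 in Ago2 null and 0.31 in Dicer KO oocytes, where called genes in general had medians of 0.65, 0.70 and 0.75. Changes of at least 2-fold were seen in 3, 3 and 1 of the called members (16.7%, 21.4% and 5.26%), against 32.7%, 34.7% and 37.3% of called genes. These are descriptions of lists that differ in abundance, and abundant genes can be called at smaller changes. Over all 49, the median log2 fold change was 0.028 in Ago2 ADH, -0.056 in Ago2 null and -0.040 in Dicer KO oocytes.

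**Figure D2:**
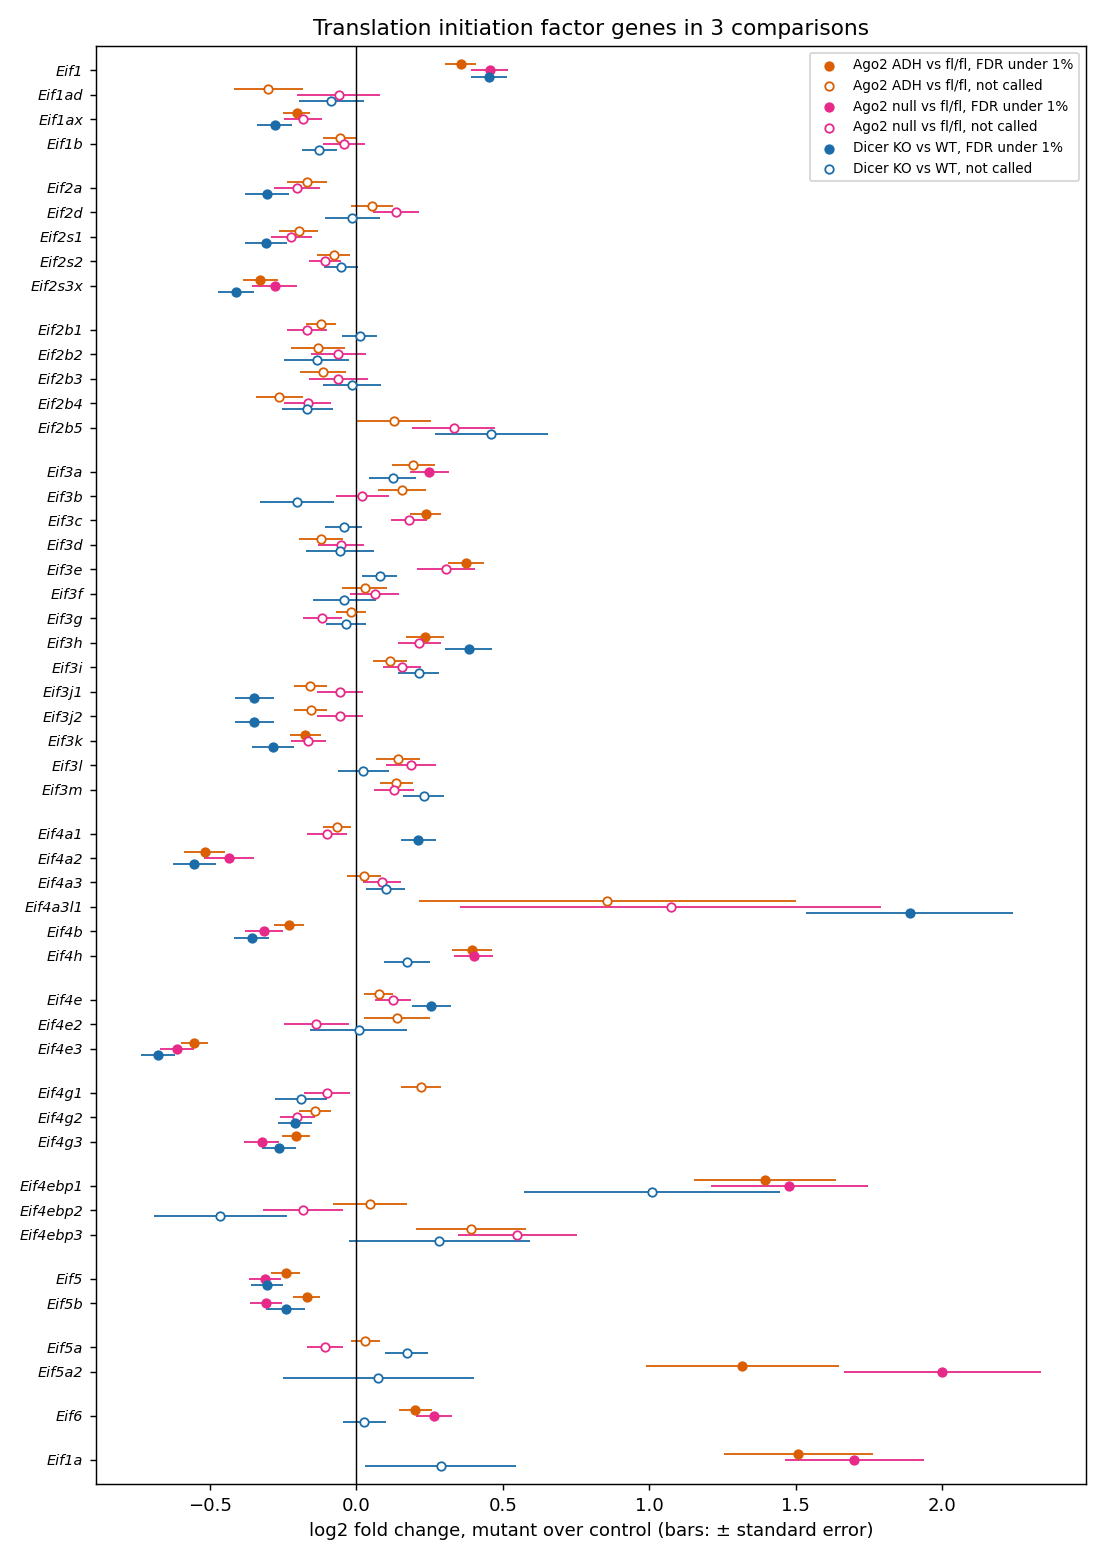
Log2 fold change (x) of the 49 tested members in Ago2 ADH and Ago2 null oocytes relative to Ago2 fl/fl and in Dicer KO relative to Dicer WT; bars are standard errors, filled points passed an FDR of 1%, and blocks follow the members' roles. Eif1a, Eif4ebp1, Eif5a2 and Eif4a3l1, all of low level, give the largest values, and Eif4e3 the lowest in each comparison.

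Members called in the same direction in all 3 comparisons were Eif1, which was higher, and 7 that were lower: Eif2s3x, Eif4a2, Eif4b, Eif4e3, Eif4g3, Eif5 and Eif5b. These are 2.04% and 14.3% of the 49 tested members, where 11.2% of all genes tested in the 3 comparisons were higher in all and 12.2% lower in all. Of the remaining called members, Eif1a, Eif4ebp1, Eif4h, Eif5a2 and Eif6 were higher in Ago2 ADH and Ago2 null, Eif3h was higher and Eif1ax and Eif3k were lower in Ago2 ADH and Dicer KO, Eif3c and Eif3e were called higher in Ago2 ADH alone and Eif3a in Ago2 null alone. Eif4a1, Eif4a3l1 and Eif4e were called higher, and Eif2a, Eif2s1, Eif3j1, Eif3j2 and Eif4g2 lower, in Dicer KO alone. The other 22 tested members were called in none of the 3. A call in one comparison and not in another does not show that the effects differ.

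Among the cap-binding proteins, Eif4e3 fell in every mutant and Eif4e was called lower in none. Eif4e3 (chr6:99621879-99692873, GRCm38) codes for an atypical cap-binding relative of eIF4E. It was at 263, 253 and 255 CPM in the Ago2 fl/fl, 166, 174 and 168 in the Ago2 ADH and 160.1 and 167 in the Ago2 null libraries, and the controls lay above every mutant library without overlap. Its log2 fold change was -0.55 (SE 0.046, FDR = 9.29e-09) in Ago2 ADH and -0.61 (SE 0.057, FDR = 1.70e-07) in Ago2 null oocytes. In the Dicer set it was at 243, 238 and 240.3 CPM in Dicer WT oocytes, against 147, 155 and 148 in Dicer KO oocytes, again without overlap, with a log2 fold change of -0.68 (SE 0.058, FDR = 1.65e-08). These correspond to 0.682, 0.655 and 0.626 times the control level. Eif4e (chr3:138526191-138559696), the canonical cap-binding protein that 4E-BPs block, was at 201, 196 and 189.8 CPM in the Ago2 fl/fl, 192, 199.5 and 208 in the Ago2 ADH and 197 and 219 in the Ago2 null libraries, where the groups overlapped and the log2 fold changes of 0.077 (SE 0.049, FDR = 0.2) and 0.13 (SE 0.061, FDR = 0.101) were not called. In Dicer KO oocytes it was higher, at 241, 223 and 231 CPM in Dicer WT oocytes, against 300.3, 269 and 258 in Dicer KO oocytes, a log2 fold change of 0.26 (SE 0.066, FDR = 0.0035) without overlap. That call was lost without any 1 of KO replicate 1 (FDR 0.0258), KO replicate 2 (FDR 0.0103) and WT replicate 2 (FDR 0.0221). Eif4e2, which codes for a cap-binding repressor, was at 8.11 to 14.7 CPM over all libraries and was called in none.

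Among Eif4e, Eif4e2 and Eif4e3, the share of Eif4e3 was lower and that of Eif4e higher in each mutant. By CPM per kb, Eif4e3 made up 67.1, 66.7 and 67.4% of the sum of Eif4e, Eif4e2 and Eif4e3 in the Ago2 fl/fl libraries. Its share was 57.8, 57.1 and 54.9% in Ago2 ADH and 56.4 and 55.4% in Ago2 null libraries, below every control library. It went from 62.95, 62.9 and 64.1% in Dicer WT to 45.6, 49.2 and 49.8% in Dicer KO libraries, where Eif4e held 47.1, 42.97 and 43.7%. Eif4e1b, the oocyte form of eIF4E and not a member (named here after its values were seen), exceeded all of them: counted in, it held 66.5 to 68.2% of the family in Ago2 fl/fl and 60.1 to 63.4% in Dicer WT libraries, and its log2 fold changes of 0.0094, -0.012 and -0.029 were not called. The shares were not tested.

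**Figure D3:**
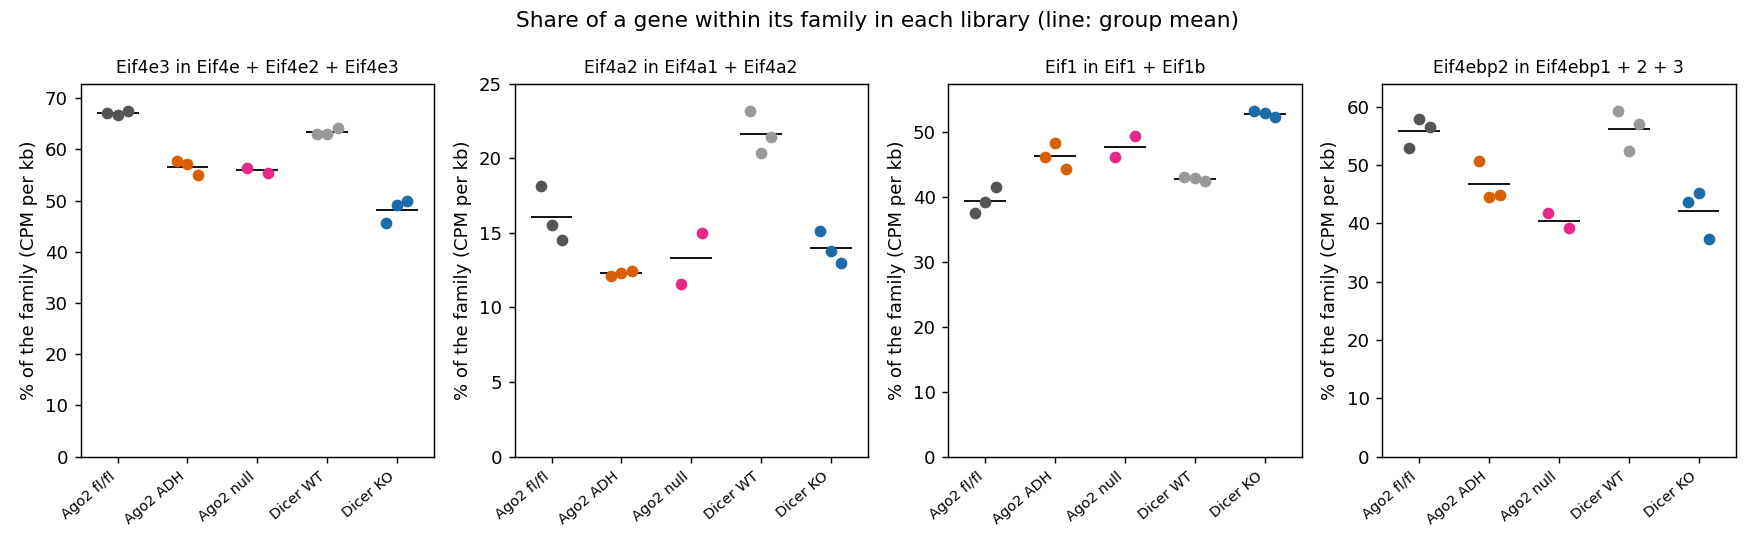
Share of 1 gene in its family (y, percent of the family's CPM per kb) in each library, with lines at the group means: Eif4e3, Eif4a2, Eif1 and Eif4ebp2. The Eif4e3 share is 66.7 to 67.4% in Ago2 fl/fl and 45.6 to 49.8% in Dicer KO libraries, and the Eif4a2 share in Ago2 null libraries spans that of the lowest Ago2 fl/fl library (14.5%).

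The helicase genes Eif4a1 and Eif4a2 code for closely related eIF4A proteins, and were called in opposite directions in Dicer KO. Eif4a2 (chr16:23107468-23114132) was at 98.8, 85.8 and 79.6 CPM in the Ago2 fl/fl, 56.8, 59.3 and 62.5 in the Ago2 ADH and 59.5 and 67.5 in the Ago2 null libraries, with all mutant libraries below all controls. The log2 fold changes were -0.52 (SE 0.071, FDR = 6.51e-06) in Ago2 ADH and -0.43 (SE 0.086, FDR = 5.39e-04) in Ago2 null oocytes. It was at 106, 98.6 and 104 CPM in Dicer WT oocytes, against 76.1, 68.95 and 65.3 in Dicer KO oocytes, again apart, with a log2 fold change of -0.55 (SE 0.072, FDR = 4.68e-06). Eif4a1 (chr11:69666936-69672423) was at 292, 305 and 307 CPM in the Ago2 fl/fl, 269.7, 278 and 288 in the Ago2 ADH and 297 and 250.4 in the Ago2 null libraries, and its log2 fold changes of -0.066 (SE 0.048, FDR = 0.265) and -0.099 (SE 0.068, FDR = 0.242) were not called. In the Dicer set it was at 231, 253 and 251 CPM in Dicer WT oocytes, against 279, 282 and 287 in Dicer KO oocytes, and all Dicer KO libraries were above all Dicer WT libraries, with a log2 fold change of 0.21 (SE 0.059, FDR = 0.00652). The call was lost without any 1 of KO replicate 1 (FDR 0.0113), KO replicate 2 (FDR 0.0258), KO replicate 3 (FDR 0.0151), WT replicate 1 (FDR 0.0496) and WT replicate 2 (FDR 0.0124), and also with summed transcripts, without TMM and with replicate number as a block. The share of Eif4a2 in the pair was 23.1, 20.4 and 21.4% in Dicer WT and 15.1, 13.8 and 12.97% in Dicer KO libraries.

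The helicase cofactors eIF4B and eIF4H moved in opposite directions in the Ago2 mutants. Eif4b (chr15:102073773-102097173) was at 187, 195 and 197 CPM in the Ago2 fl/fl, 157, 156 and 165 in the Ago2 ADH and 159.8 and 142 in the Ago2 null libraries, every mutant library being below every control, with log2 fold changes of -0.23 (SE 0.050, FDR = 8.59e-04) and -0.31 (SE 0.064, FDR = 6.57e-04). It was at 239, 253 and 265 CPM in Dicer WT oocytes, against 195, 201 and 193 in Dicer KO oocytes, with a log2 fold change of -0.36 (SE 0.060, FDR = 8.17e-05). Eif4h (chr5:134619872-134639409), one of the E-box genes shown above, was at 55.8, 56.2 and 57.5 CPM in the Ago2 fl/fl, 78.8, 65.6 and 71.2 in the Ago2 ADH and 74.3 and 70.8 in the Ago2 null libraries, where all mutants were above all controls. Its log2 fold changes were 0.395 (SE 0.069, FDR = 9.35e-05) and 0.401 (SE 0.067, FDR = 1.08e-04). For Eif4h the Dicer values were 58, 61.9 and 58.2 CPM in Dicer WT oocytes, against 59.6, 68.99 and 71.6 in Dicer KO oocytes, groups that overlapped, with a log2 fold change of 0.17 (SE 0.079, FDR = 0.0795) that was not called. Eif4a3, the helicase of the exon junction complex, was not called in any comparison, with log2 fold changes from 0.028 to 0.101. Its copy Eif4a3l1 (chr6:136327539-136329983) was at 0.621, 1.27 and 0.667 CPM in Dicer WT oocytes, against 2.58, 2.33 and 4.51 in Dicer KO oocytes, 103 counts in all against 305, and rose by a log2 fold change of 1.89 (SE 0.35, FDR = 2.35e-04). In the Ago2 set it had 5 to 23 counts a library and was not called (log2 fold changes 0.86 and 1.07). Reads that fit both Eif4a3l1 and Eif4a3 cannot be assigned by these counts, so this value is uncertain.

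Of the 3 scaffold genes, Eif4g3 fell in all mutants and Eif4g1, the canonical scaffold, was called in none. Eif4g3 (chr4:137991779-138207086) was at 176, 171 and 168 CPM in the Ago2 fl/fl, 146, 146 and 140.3 in the Ago2 ADH and 139 and 128 in the Ago2 null libraries and at 186, 189 and 193 CPM in Dicer WT oocytes, against 153, 157 and 160.3 in Dicer KO oocytes, and in each comparison the groups lay apart. Its log2 fold changes were -0.205 (SE 0.048, FDR = 0.00137), -0.32 (SE 0.060, FDR = 3.02e-04) and, in Dicer KO, -0.26 (SE 0.058, FDR = 0.00109). Eif4g1 (chr16:20672720-20692883) was at 38.4, 40.03 and 42.1 CPM in the Ago2 fl/fl, 47.5, 43.8 and 44.6 in the Ago2 ADH and 36.9 and 36.1 in the Ago2 null libraries, with Ago2 ADH above and Ago2 null below the controls and none of the 3 groups overlapping. The log2 fold changes of 0.22 (SE 0.069, FDR = 0.0115) and -0.100 (SE 0.078, FDR = 0.307) missed the threshold. It was at 40.5, 37.5 and 39.3 CPM in Dicer WT oocytes, against 30.4, 35.98 and 36.2 in Dicer KO oocytes, with a log2 fold change of -0.19 (SE 0.089, FDR = 0.0934). Eif4g2, a scaffold-like protein that does not bind eIF4E, was the most abundant of the 3 by length and lower in Dicer KO at -0.21 (SE 0.057, FDR = 0.00573), a call lost without any 1 of KO replicate 1 (FDR 0.0203), KO replicate 2 (FDR 0.0317), WT replicate 1 (FDR 0.0125) and WT replicate 3 (FDR 0.0195) and with the block.

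The genes of the 4E-BP inhibitors were low, at 0.278 to 5.42 CPM per kb as group means, and 1 of them rose. Eif4ebp1 (chr8:27260327-27275656) was at 1.04, 1.202 and 0.842 CPM in the Ago2 fl/fl, 2.33, 2.898 and 2.64 in the Ago2 ADH and 2.595 and 2.995 in the Ago2 null libraries, 44 to 71 counts in the control and 114 to 158 in the mutant libraries, which did not overlap. It rose by log2 fold changes of 1.39 (SE 0.24, FDR = 8.87e-05) and 1.48 (SE 0.27, FDR = 2.28e-04). In the Dicer set it was at 0.517, 0.722 and 0.429 CPM in Dicer WT oocytes, against 0.742, 1.097 and 1.504 in Dicer KO oocytes, with 18 to 53 counts a library, and the log2 fold change of 1.01 (SE 0.44, FDR = 0.0668) was not called although the libraries did not overlap. Eif4ebp2 and Eif4ebp3 were called in no comparison. Their log2 fold changes ran from -0.46 to 0.047 and from 0.28 to 0.55.

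**Figure D4:**
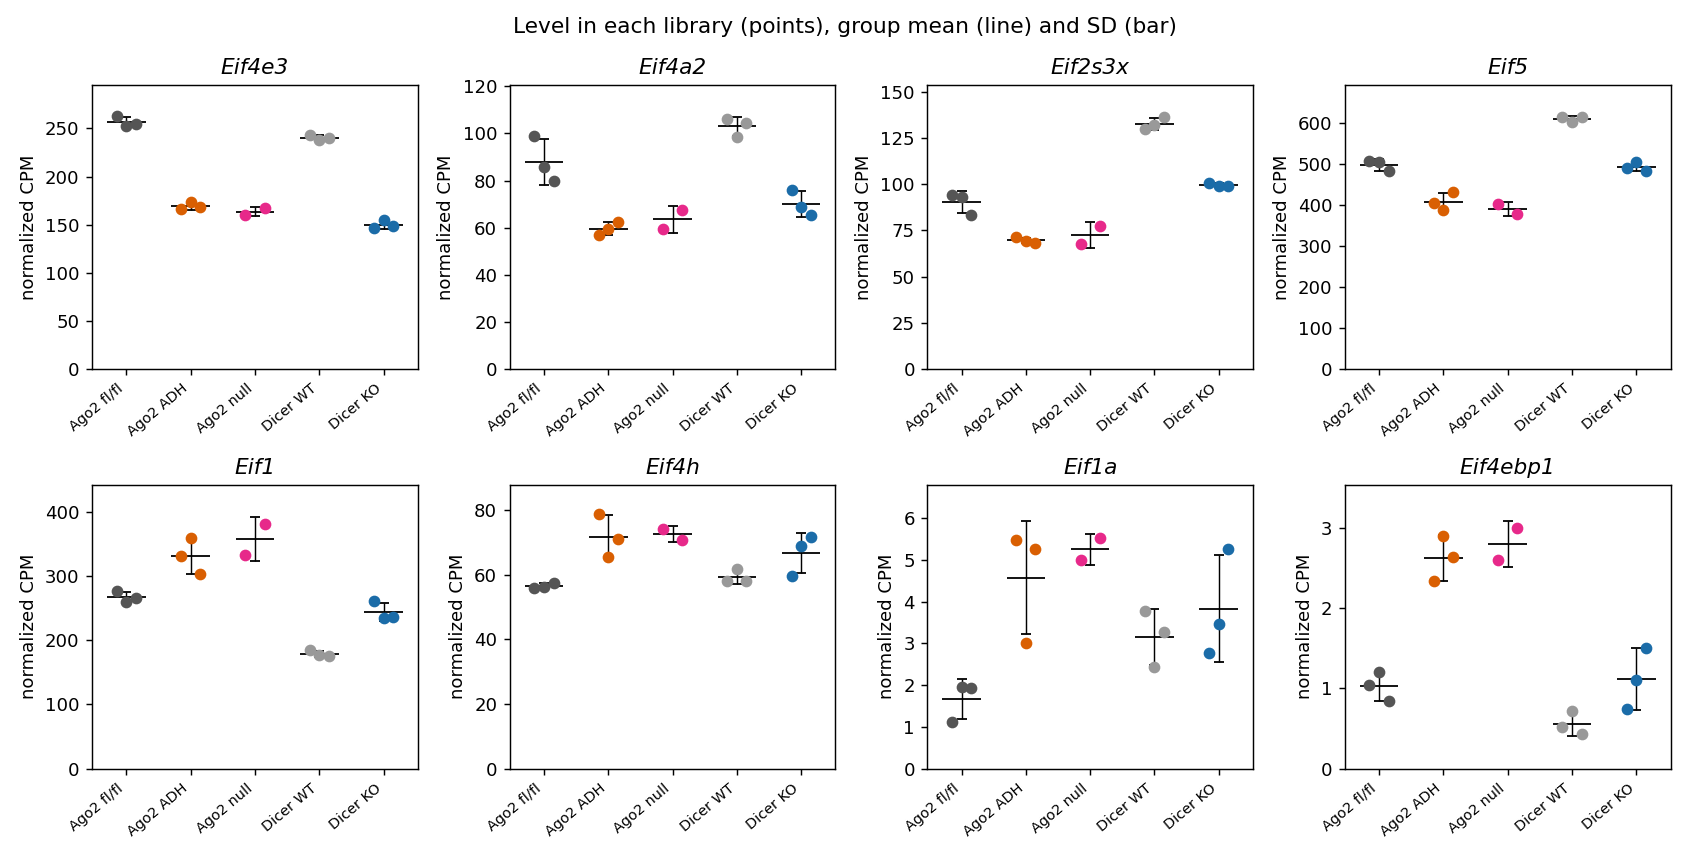
Normalized CPM (y) in each library for 8 members, with the group mean and SD (2 libraries in Ago2 null, 3 in the others); each y axis starts at 0. In the upper row, genes called lower in all 3 comparisons, every mutant library is below its controls, and in the lower row Eif1 is higher in all mutants whereas Eif4h and Eif1a overlap between Dicer KO and Dicer WT.

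The eIF2 subunit genes that were called were lower. Eif2s3x (chrX:94188709-94212651), the X-linked gene of the gamma subunit that holds the initiator tRNA and one with a pyrimidine start in the windows above, was at 94.2, 93.04 and 83.2 CPM in the Ago2 fl/fl, 71.3, 69.1 and 68.2 in the Ago2 ADH and 67.4 and 77.4 in the Ago2 null libraries, every mutant below every control. The log2 fold changes were -0.33 (SE 0.060, FDR = 1.41e-04) in Ago2 ADH and -0.28 (SE 0.077, FDR = 0.00679) in Ago2 null oocytes. The second call was lost without any 1 of fl/fl replicate 1 (FDR 0.0245), fl/fl replicate 2 (FDR 0.0426) and null replicate 1 (FDR 0.104), and also with at least 10 counts in every library. It was at 129.6, 132 and 136 CPM in Dicer WT oocytes, against 101, 98.95 and 99.1 in Dicer KO oocytes, with a log2 fold change of -0.41 (SE 0.061, FDR = 2.20e-05). Eif2s1 (chr12:78862072-78887010), the alpha subunit phosphorylated by the eIF2 kinases, was at 77.5, 82.6 and 76.1 CPM in the Ago2 fl/fl, 73.3, 62.9 and 63.2 in the Ago2 ADH and 68.2 and 63.2 in the Ago2 null libraries, apart from the controls, though its log2 fold changes of -0.196 (SE 0.067, FDR = 0.0201) and -0.22 (SE 0.070, FDR = 0.0147) missed the threshold. It fell in Dicer KO, at 101, 92.3 and 107 CPM in Dicer WT oocytes, against 83.9, 80.5 and 77.9 in Dicer KO oocytes, by a log2 fold change of -0.31 (SE 0.071, FDR = 0.00157), a call lost without WT replicate 3 (FDR 0.0104). Eif2s2, the beta subunit, was called in none, with log2 fold changes from -0.11 to -0.052. Of the alternative factors that deliver initiator tRNA, Eif2a fell in Dicer KO (-0.304, SE 0.076, FDR = 0.00303), a call lost without any 1 of KO replicate 1 (FDR 0.0113), KO replicate 2 (FDR 0.0111) and WT replicate 2 (FDR 0.0115), and Eif2d was called in none. Of the 5 eIF2B subunit genes edgeR called 0 in each comparison, with 2, 2 and 1 at an unadjusted p under 0.05 in Ago2 ADH, Ago2 null and Dicer KO. DESeq2 called 1 of them, Eif2b4 in Ago2 ADH, where the edgeR log2 fold change was -0.26 (SE 0.081, FDR = 0.0108).

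In eIF3, 4 of the 14 genes were called in Ago2 ADH (3 higher, 1 lower) and 1 in Ago2 null. In Dicer KO 4 were called (1 higher, 3 lower, the last including both Eif3j genes). These were 28.6%, 7.14% and 28.6% of the 14, where 40.7%, 37.2% and 34.5% of all transcripts tested were called. Eif3h (chr15:51786563-51865461) was at 52.6, 56.1 and 58.8 CPM in the Ago2 fl/fl, 62.1, 62.97 and 65.8 in the Ago2 ADH and 64.5 and 61.7 in the Ago2 null libraries, where the groups did not overlap. Its log2 fold changes were 0.24 (SE 0.064, FDR = 0.00478) and 0.22 (SE 0.073, FDR = 0.0218), the first called and lost without any 1 of ADH replicate 1 (FDR 0.0133), ADH replicate 3 (FDR 0.0262), fl/fl replicate 1 (FDR 0.0312) and fl/fl replicate 2 (FDR 0.017), and also with all groups in 1 fit or no TMM. It was at 42.95, 39.8 and 42.2 CPM in Dicer WT oocytes, against 53.1, 58.2 and 51.1 in Dicer KO oocytes, a rise of 0.38 (SE 0.080, FDR = 6.13e-04). Eif3a (chr19:60761116-60790693), the largest subunit and the scaffold of the complex, was at 60.9, 59.3 and 59.1 CPM in the Ago2 fl/fl, 63.5, 60.97 and 74.3 in the Ago2 ADH and 71.1 and 67.3 in the Ago2 null libraries, with a log2 fold change of 0.196 (SE 0.072, FDR = 0.0298) in Ago2 ADH and a called 0.25 (SE 0.067, FDR = 0.00521) in Ago2 null. The latter was lost without any 1 of fl/fl replicate 2 (FDR 0.0213), fl/fl replicate 3 (FDR 0.0166) and null replicate 1 (FDR 0.0365), with summed transcripts, all groups in 1 fit, the block or no TMM. Eif3a was at 78.4, 62.3 and 66.5 CPM in Dicer WT oocytes, against 73.97, 76.8 and 74.3 in Dicer KO oocytes, where the libraries overlapped (0.12, SE 0.081, FDR = 0.225).

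Eif3e rose in Ago2 ADH (0.37, SE 0.060, FDR = 4.02e-05), with 0.31 in Ago2 null and 0.081 in Dicer KO not called. Eif3c rose in Ago2 ADH (0.24, SE 0.053, FDR = 9.81e-04), a call lost without fl/fl replicate 2 (FDR 0.0125). Eif3k fell in Ago2 ADH (-0.17, SE 0.052, FDR = 0.00919) and Dicer KO (-0.28, SE 0.071, FDR = 0.00318). The first call was lost without any 1 of ADH replicate 1 (FDR 0.0225), ADH replicate 3 (FDR 0.0343), fl/fl replicate 1 (FDR 0.0322), fl/fl replicate 2 (FDR 0.0168) and fl/fl replicate 3 (FDR 0.021), and also with summed transcripts, with the block and with at least 10 counts in every library. The second was lost without any 1 of KO replicate 2 (FDR 0.0252), WT replicate 1 (FDR 0.0135) and WT replicate 2 (FDR 0.0115). Eif3j1, whose counts were nearly those of Eif3j2, fell in Dicer KO (-0.35, SE 0.067, FDR = 3.01e-04). The other 7 subunit genes, Eif3b, Eif3d, Eif3f, Eif3g, Eif3i, Eif3l and Eif3m, were called in none, with log2 fold changes between -0.201 and 0.23.

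Of the factors that govern scanning, Eif1 was the 1 member that rose in all 3 comparisons. Eif1 (chr11:100319949-100322099) was at 276, 260.0 and 266 CPM in the Ago2 fl/fl, 331, 359.7 and 304 in the Ago2 ADH and 333 and 381 in the Ago2 null libraries, every mutant being above every control. The log2 fold changes were 0.36 (SE 0.053, FDR = 1.75e-05) and 0.46 (SE 0.062, FDR = 1.43e-05). In the Dicer set it was at 184, 178 and 175 CPM in Dicer WT oocytes, against 261, 235 and 237 in Dicer KO oocytes, apart again, with a log2 fold change of 0.45 (SE 0.062, FDR = 7.66e-06). Its relative Eif1b was not called in any comparison (-0.056, -0.042 and -0.13). By CPM per kb, Eif1 held 43.1, 42.9 and 42.5% of the pair in Dicer WT and 53.2, 52.9 and 52.3% in Dicer KO libraries, and so passed Eif1b there. Eif1ad, which codes for a protein with an eIF1A-like domain, was called in none (-0.299, -0.059 and -0.084). Eif1ax, the X-linked gene of eIF1A, fell in Ago2 ADH (-0.202, SE 0.046, FDR = 0.00122) and Dicer KO (-0.28, SE 0.059, FDR = 7.99e-04). Its autosomal copy Eif1a was at 1.11, 1.95 and 1.93 CPM in the Ago2 fl/fl, 5.47, 3.01 and 5.25 in the Ago2 ADH and 4.99 and 5.51 in the Ago2 null libraries, 64 to 115 counts in control and 164 to 298 in mutant libraries, without overlap. Eif1a rose by 1.51 (SE 0.25, FDR = 6.44e-05) and 1.699 (SE 0.24, FDR = 1.73e-05). It was at 3.77, 2.44 and 3.27 CPM in Dicer WT oocytes, against 2.77, 3.47 and 5.25 in Dicer KO oocytes, which overlapped, with a log2 fold change of 0.29 (SE 0.26, FDR = 0.383) that was not called. The Eif1a share of the pair went from 0.851 to 1.55% in Ago2 fl/fl to 2.80 to 4.89% in Ago2 ADH libraries. Reads that fit both eIF1A genes cannot be assigned, so the value of the low copy is uncertain.

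Both genes of subunit joining fell throughout. Eif5 (chr12:111538101-111546753), whose protein makes eIF2 hydrolyse its GTP, was at 506, 506 and 482 CPM in the Ago2 fl/fl, 404, 388 and 432 in the Ago2 ADH and 403 and 379 in the Ago2 null libraries, with all mutants below all controls. The log2 fold changes were -0.24 (SE 0.050, FDR = 5.60e-04) and -0.31 (SE 0.055, FDR = 1.92e-04). It was at 614, 603 and 616 CPM in Dicer WT oocytes, against 491, 504 and 484 in Dicer KO oocytes, with a log2 fold change of -0.304 (SE 0.055, FDR = 1.75e-04). Eif5b, the GTPase that joins the large subunit, changed by -0.17 (SE 0.046, FDR = 0.00487), -0.31 (SE 0.055, FDR = 2.07e-04) and -0.24 (SE 0.067, FDR = 0.00667) in the same 3 comparisons. The Eif5b call in Ago2 ADH was lost without any 1 of ADH replicate 1 (FDR 0.0162), ADH replicate 2 (FDR 0.0184), fl/fl replicate 1 (FDR 0.0102), fl/fl replicate 2 (FDR 0.0169) and fl/fl replicate 3 (FDR 0.0158). In Dicer KO it was lost without any 1 of KO replicate 1 (FDR 0.0117), KO replicate 3 (FDR 0.0348), WT replicate 1 (FDR 0.0196) and WT replicate 3 (FDR 0.0221) and with the block.

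eIF5A, despite its name, acts mainly in elongation and termination and needs the amino acid hypusine. Eif5a (chr11:69916712-69921958) was at 186, 193 and 186 CPM in the Ago2 fl/fl, 183, 182 and 193 in the Ago2 ADH and 179.7 and 161 in the Ago2 null libraries and at 111, 124 and 136 CPM in Dicer WT oocytes, against 138, 134 and 144 in Dicer KO oocytes, and was called in none (0.031, -0.11 and 0.17). The second gene, Eif5a2 (chr3:28781032-28798846), was far lower, at 0.449, 0.627 and 0.497 CPM in the Ago2 fl/fl, 1.21, 1.302 and 1.29 in the Ago2 ADH and 1.75 and 2.35 in the Ago2 null libraries, 26 to 37 counts in control and 56 to 124 in mutant libraries without overlap. Eif5a2 rose by 1.32 (SE 0.33, FDR = 0.00249) in Ago2 ADH and 2.00 (SE 0.33, FDR = 1.08e-04) in Ago2 null, the latter 4.001 times the control level. The Ago2 ADH call was lost without any 1 of fl/fl replicate 1 (FDR 0.0109) and fl/fl replicate 3 (FDR 0.0104). The Dicer libraries overlapped, at 1.71, 1.82 and 1.57 CPM in Dicer WT oocytes, against 1.94, 1.03 and 2.36 in Dicer KO oocytes (0.075, SE 0.33, FDR = 0.869). Even after its rise Eif5a2 was at most 0.416% of the pair in an Ago2 library.

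Eif6 (chr2:155819837-155826925), whose protein keeps free large subunits from joining small ones and serves in ribosome assembly, was at 95.8, 97.4 and 95.7 CPM in the Ago2 fl/fl, 105, 115 and 102 in the Ago2 ADH and 113 and 112 in the Ago2 null libraries, all mutants above all controls. Its log2 fold changes were 0.203 (SE 0.055, FDR = 0.00468) and 0.27 (SE 0.060, FDR = 0.00153). The first was lost without any 1 of ADH replicate 1 (FDR 0.0139), ADH replicate 2 (FDR 0.0254), fl/fl replicate 1 (FDR 0.0162), fl/fl replicate 2 (FDR 0.016) and fl/fl replicate 3 (FDR 0.0181), and also with summed transcripts, all groups in 1 fit or no TMM, and the second was lost with the replicate block (FDR = 0.0181). It was at 69.7, 74.3 and 80.96 CPM in Dicer WT oocytes, against 72.8, 79.7 and 76.1 in Dicer KO oocytes, overlapping, with 0.028 (SE 0.074, FDR = 0.781).

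As a sum, the members took a smaller part of the transcript counts in each mutant. They summed to 5939 to 6054 CPM in Ago2 fl/fl, 5530.0 to 5629 in Ago2 ADH and 5512 to 5528 in Ago2 null libraries, and to 6047 to 6259 in Dicer WT and 5577 to 5731 in Dicer KO libraries. No mutant library reached its controls, also without TMM scaling (6037 to 6074, 5525 to 5737, 5629 to 5640, 6134 to 6156 and 5394 to 5492 in the same order). The means were different by -7.13%, -7.92% and -7.70% in Ago2 ADH, Ago2 null and Dicer KO. Mean levels were lower in 29, 30 and 28 and higher in 21, 20 and 22 of the 50 members. With the 2 Eif3j genes counted once, the members summed to 5858 to 5973, 5461 to 5562, 5445 to 5446, 5920.0 to 6134 and 5485 to 5631 CPM in the order above, and 28, 29 and 27 of 49 means were lower. The abundant genes Eif5, Eif4e3, Eif4g2 and Eif5b were among the 5 with the largest fall in CPM each time, and the 5 together accounted for -320.1 of -622, -388 of -707 and -415 of -715 CPM over the members with a lower mean. CPM are shares of a library, so less RNA of the members and more of other transcripts cannot be told apart. These sums are not per kb, so long transcripts such as those of Eif4g2 (7995 bases) and Eif5b (7797 bases) weigh more in them. The percentages are thus of counts and not of numbers of transcripts.

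Ago2 ADH and Ago2 null oocytes, compared directly, differed in none of the 49 members at an FDR of 1% by edgeR or by DESeq2 (0.119% of all transcripts were called by edgeR), with 2 at an unadjusted p under 0.05 (10% of transcripts). These were Eif4g1, at 0.303 (SE 0.083, FDR = 0.183) for Ago2 ADH relative to Ago2 null, and Eif5a2, at -0.702 (SE 0.28, FDR = 0.399). In neither did the 2 groups overlap, but they also lay apart in members at a higher p, such as Eif3c, Eif4g3 and Eif5b. With 3 and 2 libraries, groups can lie apart without a difference. Standard errors ran from 0.059 to 0.68 on the log2 scale, and the 95% interval of the difference was -0.083 to 0.16 for Eif4e3, -0.26 to 0.057 for Eif4a2 and -0.64 to 0.22 for Eif1a. These intervals hold the differences compatible with the values of 3 and 2 libraries, and they are not limits of detection.

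The effect of the Ago2 ADH genotype was also tested against that of Dicer KO, as an interaction over the 12 libraries. Eif4a1 was the 1 member called (3.55% of all transcripts were, 1.2% higher and 2.35% lower), with a difference of -0.33 (SE 0.073, FDR = 0.00584). Its Ago2 ADH effect of -0.066 and Dicer KO effect of 0.21, given above, came from the separate fits of each set. Each fit was scaled on its own, so these values do not subtract exactly to the difference. The call was lost without any 1 of ADH replicate 1 (FDR 0.0278), ADH replicate 2 (FDR 0.012), fl/fl replicate 2 (FDR 0.0221), fl/fl replicate 3 (FDR 0.0195), KO replicate 2 (FDR 0.0145) and WT replicate 1 (FDR 0.0213). It was also lost with RLE scaling, no TMM, all groups in 1 fit and the block. The median interaction over all transcripts was -0.027 with TMM and 0.0035 with RLE scaling. At an unadjusted p under 0.05 there were 10 of 49 members (23.3% of all transcripts), and at an FDR of 5% 2 (8.4% of transcripts). Among them were Eif4g1 at 0.36 (SE 0.11, FDR = 0.0447), Eif1a at 1.17 (SE 0.39, FDR = 0.063), Eif5a2 at 1.19 (SE 0.45, FDR = 0.107) and Eif4e at -0.23 (SE 0.084, FDR = 0.0911). The Ago2 and Dicer libraries were on different lanes, so this contrast sets differences within each set against each other and no library of one directly against the other.

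Members with long transcripts had lower median changes than members with short ones. In Dicer KO, 1 of 21 members with a transcript under 2000 bases, 6 of 16 from 2000 to 4000 bases and 6 of 10 over 4000 bases were called lower (4.76%, 37.5% and 60%), where among all genes at a mean of at least 1 CPM the shares were 13.1%, 19.5% and 27.2%. The median log2 fold changes of the 3 bins were 0.028, -0.068 and -0.22. In Ago2 ADH the counts called lower were 1, 4 and 4 (4.76%, 25% and 40%, against 15.9%, 22.9% and 29.2% of genes), and in Ago2 null 0, 4 and 3 (0%, 25% and 30%, against 12.9%, 21.2% and 31.6%). Over the 47 members with Eif3j counted once, Spearman's rho of transcript length and log2 fold change was -0.25 in Ago2 ADH, -0.27 in Ago2 null and -0.38 in Dicer KO, against -0.093, -0.15 and -0.0998 over all genes. Pearson's r with log2 length was -0.065, -0.047 and -0.31 for the members and -0.071, -0.11 and -0.085 for all genes, so that by this measure the members were no more related to length than all genes in either Ago2 comparison. The points are genes of the same libraries and are not independent. The 2 upper bins hold fewer than 20 members each. The part of transcript length in the falls of Eif5b, Eif4g3, Eif4b and Eif5 was not tested.

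**Figure D5:**
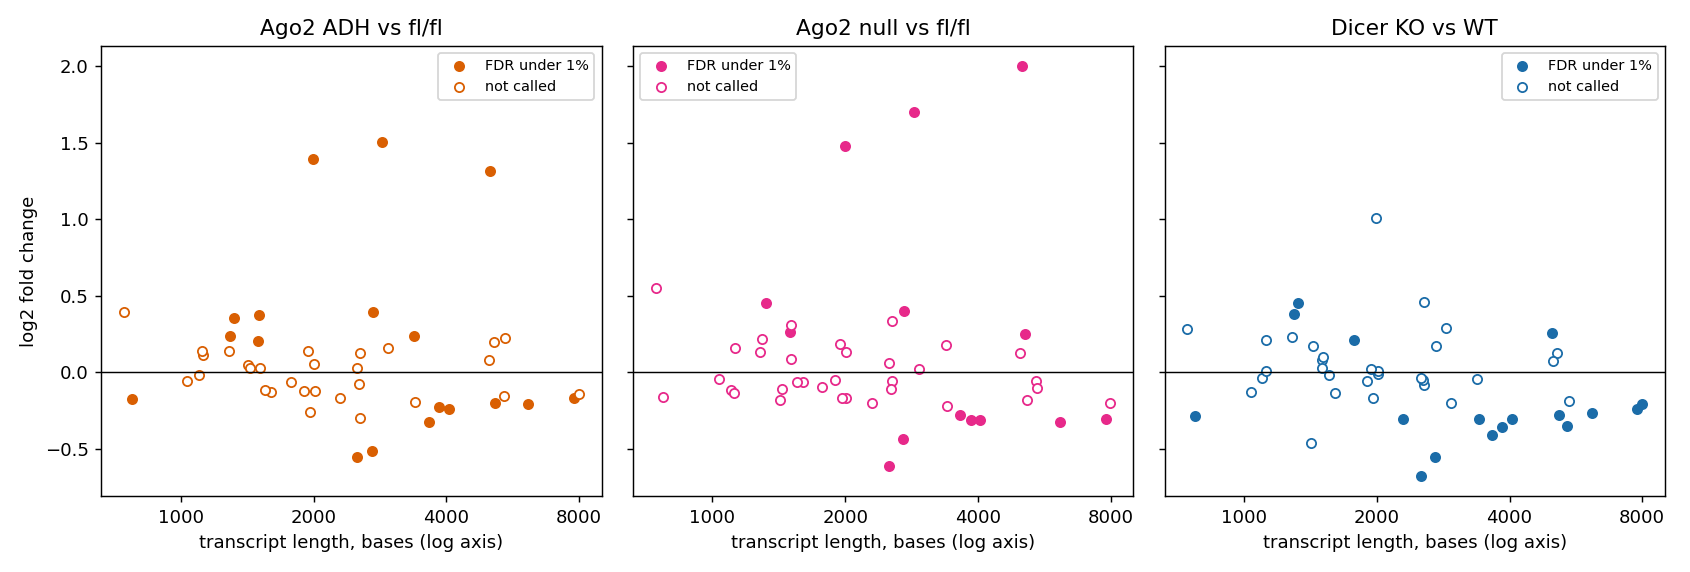
Log2 fold change (y) against transcript length (x, log axis) of 47 members at a mean of at least 1 CPM, 1 panel per comparison; filled points passed an FDR of 1%. In the Dicer KO panel 6 of the 10 members over 4000 bases are called lower, and the 3 rises above 1 in the Ago2 panels are Eif4ebp1, Eif1a and Eif5a2.

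Other genes of translation were taken as lists beside the members. Of 45 tested, 11 rose and 12 fell in Ago2 ADH (51.1%) and 11 and 12 in Ago2 null (51.1%). In Dicer KO 8 rose and 12 fell (44.4%). The backgrounds over all transcripts were 40.7%, 37.2% and 34.5%, and stand beside each list below as well. Genes at a mean of at least 1 CPM were called more often. In Ago2 ADH 22.9% of them were higher and 23.0% lower, in Ago2 null 21.0% and 22.25%, and in Dicer KO 18.5% and 20.2%. The lists were not matched to either background in level, and no test of the lists was made. The mTOR and MNK signalling list had 12 genes, of which 3 rose and 4 fell in each Ago2 comparison and 2 rose and 5 fell in Dicer KO. Within it Mtor, the kinase that phosphorylates 4E-BPs, fell in all mutants, by log2 fold changes of -0.31 (SE 0.072, FDR = 0.00121), -0.46 (SE 0.080, FDR = 1.59e-04) and -0.73 (SE 0.079, FDR = 3.61e-07). Rptor, the partner of mTOR in the complex that acts on 4E-BPs, moved the other way, rising in Ago2 ADH (1.06, SE 0.12, FDR = 5.02e-07) and Ago2 null (0.97, SE 0.13, FDR = 1.35e-05), with 0.498 (SE 0.17, FDR = 0.0215) in Dicer KO not called. Rheb, which activates that complex, rose in Dicer KO (0.51, SE 0.069, FDR = 6.13e-06) and was called in neither Ago2 comparison (0.077 and 0.197). Rps6kb1, the S6 kinase below mTOR, fell (-0.51, -0.75 and -0.69, all called). The MNK kinases that phosphorylate eIF4E diverged, Mknk1 falling (-0.397, -0.39 and -0.34) and Mknk2 rising (1.16, 1.13 and 1.01), each called.

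Among poly(A)-binding proteins and their partners, 2 of 6 rose and 2 fell in every comparison. Pabpc1, the somatic poly(A)-binding protein, rose (1.35, 1.099 and 0.56). Paip2b, an inhibitor of poly(A)-binding proteins, fell (-0.35, -0.33 and -0.64). Paip1, which links Pabpc1 to eIF3 and eIF4A, fell (-0.39, -0.398 and -0.28). Of 7 tested elongation genes 3 rose and 1 fell each time: Eef1a1, Eef1b2 and Eef1g rose, and Eef2k, the kinase that inhibits eEF2, fell. In the list of other initiation and recycling factors the helicase genes Ddx3x and Dhx29 fell in all 3 comparisons, and Denr rose in both Ago2 comparisons (0.47 and 0.66). Of the 6 eIF2 kinase and phosphatase genes in the count data, Ppp1r15b fell and Ppp1ca rose in all 3, and Eif2ak2, the kinase PKR, rose in both Ago2 comparisons (1.07 and 0.98). Eif4enif1, which codes for the eIF4E transporter, fell in Ago2 null (-0.21) and was not called in the others (-0.100 in Ago2 ADH and -0.092 in Dicer KO). Of 3 termination factors Gspt2 fell in all 3 comparisons and the others were not called.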

How the data were processed

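RNA of 20 pooled full-grown GV oocytes per library was amplified as cDNA and sequenced. The authors aligned reads to mm10 with TopHat, keeping up to 100 alignments, and counted them per RefSeq transcript with htseq-count (HTSeq 0.6.1 in the submitters' processing notes), without strand and in intersection-strict mode, so the deposited values are raw counts, and a read lying in several transcripts of a gene could count for each. The paper lists different TopHat options for shorter and for longer reads, and which libraries had which length is not stated. The part of read length in the reads with several alignments was not tested. The 5 tally rows that name no transcript, such as reads with several alignments, were left out of library sizes. Of 26495 transcripts, 26081 were given symbols through a RefSeq table and 113 through GENCODE, and 301 had none.

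Each comparison was fitted on all transcripts with edgeR 4.0.16 (R 4.3.3): filterByExpr with a minimum count of 10 and a minimum total of 15, TMM, the quasi-likelihood test and Benjamini-Hochberg adjustment, at an FDR of 1%. FDR values are edgeR's adjusted p-values, and SE is the log2 fold change divided by the root of F. Normalized CPM used TMM over the 14 libraries, and total counts per library were 29380403 to 58285057. Groups were read from the labels, and library values were tabulated with Python 3.11.15. DESeq2 1.42.0, other scalings, filters and designs, and leaving out each library were alternatives. The fit was tested on simulated counts. No pair of replicates agreed within sampling noise (chi-square per degree of freedom 6.54 to 14.94).

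The members and the lists were chosen with earlier results of these data known. Library values and full statistics are given for the 4 largest rises and 4 largest falls among called members in each comparison, for any member called in Ago2 ADH against Ago2 null or in the interaction, and for Eif4e, Eif4g1, Eif4a1, Eif2s1, Eif3a, Eif5, Eif5a and Eif6. At most 3 called genes with the lowest p in a comparison are named from each other list. Sequences are RefSeq promoters on GRCm38.p6.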

Additional observations from a re-analysis of the deposited data

Results flagged for a closer look

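Eif4a1 was singled out because it was the 1 member called when the Ago2 ADH effect was tested directly against the Dicer KO effect. That is 2.04% of the 49 tested members, where 3.55% of all transcripts were called. The Ago2 ADH effect minus the Dicer KO effect was -0.33 on the log2 scale in the interaction fit. Its call was lost in 10 of 21 alternatives, all of the same direction.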

How the results depend on the processing

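No called value changed direction in any alternative. With an FDR of 5% the members called in Ago2 null rose from 14 to 23. For the interaction the 1 member called became 2 with an FDR of 5% and 2 with DESeq2, and 0 with RLE normalization, all 5 groups in one fit, the replicate block or no TMM, and 0 to 1 when a library was left out. Leaving out 1 library gave 13 to 19 members called in Ago2 ADH, 12 to 15 in Ago2 null and 14 to 17 in Dicer KO, and 0 in Ago2 ADH against Ago2 null. Other settings gave 17 to 27, 12 to 23, 16 to 21 and 0. The total-count scaling was added after the data were seen. Causes of these shifts were not tested, and fewer libraries give fewer degrees of freedom.

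Replicate numbers did not pair the libraries: deviations of same-numbered libraries correlated at -0.187 to 0.0876, and nothing in the labels ties them. With the replicate block 18 members were called in Ago2 ADH, 12 in Ago2 null, 16 in Dicer KO and 0 in the interaction. Members under about 100 counts a library, such as Eif5a2 and Eif4a3l1, are limited by depth.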
